A study of Mus musculus with 2 samples.

Results

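The genes described here are 6 interferon-inducible GTPases of the mouse: Igtp (also called Irgm3), Ifi47 (also called Irgd), Irgm1 and Irgm2 of the immunity-related GTPase family, and Gbp2 and Gbp7 of the guanylate-binding protein family. They are 6 of the 12432 genes in the deposited table, and all 6 were above 0 in at least 10% of cells. They were chosen with results in view: Igtp had the smallest p-value in a comparison of Foxp3-positive with Foxp3-negative cells of the same data, so the values of that comparison are given below as a description and not as a test. The cells were single CD4 T cells of C57BL/6 mice, taken from spleen and peripheral lymph nodes, and the mice carried Candida albicans engineered to express the 2W1S model antigen, sorted for binding to 2W1S and read over whole transcripts on the Fluidigm C1 instrument. All 178 cells came from colonized mice and form 1 group, with a March capture of 82 cells (runs Mar1, 25 cells, and Mar17, 57 cells) and an April capture of 96 cells (runs Apr13 and Apr21, 48 cells each). No uncolonized or untreated cells were analysed here, and the labels do not say how many mice were pooled for a capture. The spread between captures may therefore be technical. The p-values, SE and intervals of fitted differences rest on that spread only in part, since the test also draws on the spread of other genes.

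Both families are large GTPases that cells make in quantity when interferon gamma, and for several members type I interferon, signals through its receptor, and their promoters often hold the GAS and ISRE motifs of that response. In infected cells the effector GTPases, Ifi47 among them, load onto the membrane of vacuoles that hold certain intracellular microbes, and guanylate-binding proteins such as Gbp2 and Gbp7 join them there. Igtp, Irgm1 and Irgm2 are the regulatory members of the immunity-related family: they sit on the cell's own membranes and keep the effectors inactive there. In mouse T cells Irgm1 is also known for its part in the survival of activated cells during interferon gamma responses.

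The 6 genes lie in 3 places in genome build mm10, by the GENCODE vM21 annotation. Igtp (chr11:58199556-58207591, plus strand) lies almost wholly within the body of Irgm2 (chr11:58199618-58222782, plus strand). Ifi47 (chr11:49076587-49096974, plus strand) and Irgm1 (chr11:48861968-48871683, minus strand) are near each other on another stretch of chromosome 11. Gbp7 (chr3:142530342-142550149, plus strand) and Gbp2 (chr3:142620602-142638008, plus strand) lie 70453 bases apart on chromosome 3. Of the 50-base words of the longest annotated transcript, 12.3% for Igtp were also found in Irgm2, and 7.30% for Irgm2 were found in other genes, most of them in Igtp. How the counting dealt with such reads is not given in the sources used here, so the levels of Igtp and Irgm2, and any likeness between them, may rest in part on shared reads. The share in other genes was 12.8% for Gbp7, most of it in the processed pseudogene Gm43802 that overlaps it, 3.71% for Ifi47, 2.07% for Gbp2 and 0 for Irgm1.

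The promoters of these genes are shown because they hold interferon motifs. The genes were chosen as interferon-inducible GTPases, whose promoters often hold these motifs, so the counts are a description and not a test. In RefSeq promoter sequences of build GRCm38.p6, from 250 bases before to 50 bases after the annotated start, 5 of the 6 genes held the ISRE core GAAANNGAAA on either strand, and 3 of the 6 held the GAS motif TTCNNNGAA. Of all 32851 promoters of that length, 3.44% held the ISRE core and 8.30% the GAS motif. Similar genes held them too. Of 6 other interferon-inducible GTPases with a promoter there, 6 held the ISRE core and 4 the GAS motif. Of 25 type I interferon-stimulated genes, 14 held the ISRE core and 4 the GAS motif. The stretch around the matches is given for Igtp (chr11:58199491-58199551, plus strand), Irgm2 (chr11:58214882-58214942, plus strand, inside the annotated Irgm2 gene body) and Gbp7 (chr3:142530210-142530312, plus strand), 5′ to 3′, with the motif matches in capitals.
Igtp: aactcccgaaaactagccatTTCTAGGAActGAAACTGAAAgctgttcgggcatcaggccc
Irgm2: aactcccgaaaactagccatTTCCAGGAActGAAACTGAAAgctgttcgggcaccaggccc
Gbp7: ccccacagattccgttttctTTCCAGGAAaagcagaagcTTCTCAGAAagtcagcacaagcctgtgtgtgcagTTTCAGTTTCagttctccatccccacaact
The Igtp and Irgm2 stretches had the same base at 59 of 61 positions. Counted from 1 at the 5′ end of the stretch, with the Igtp base first, they differed by T24C and T54C. In both, the GAS match comes first and the ISRE core follows it closely. The Igtp matches lie at bases -45 to -37 (GAS) and -34 to -25 (ISRE core) relative to the start. In Gbp7 the ISRE core is on the opposite strand, at -53 to -44, downstream of a pair of GAS matches. Irgm1 held a pair of overlapping ISRE cores, at -30 to -21 and -24 to -15, and Gbp2 held 1, at -59 to -50. By the GENCODE vM21 annotation, all 50 bases of the Irgm1 stretch from -50 to -1 lie in Irgm1 exon sequence. So do 32 of the 50 bases of the Gbp2 stretch from -79 to -30, in Gbp2. These positions count from the RefSeq start and need not lie upstream of every annotated start. Ifi47 held neither motif, which says only that these letters are not in this window.

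Across the cells these genes were read as high in some cells and near 0 in most others. Values are log2 of the linear, TPM-like value plus 1, and a linear value of at least 1 was taken as clear detection, since 36.6% of all values above 0 lay below it. Cells also vary in how completely a transcript is captured, so a value of 0 in a cell does not show that the gene was silent. The mean log2 level gave the same order in the March and in the April capture: Ifi47, Igtp, Irgm1, Gbp7, Gbp2, Irgm2.

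Ifi47, the effector GTPase of the set, averaged 2.86 in March and 3.56 in April, with an SD over cells of 3.68 and 4.02. A linear value of at least 1 was seen for 48.8% of March cells and 53.1% of April cells, and its highest value was 12.32. Igtp, a regulatory GTPase, averaged 2.51 in March and 2.41 in April, with an SD over cells of 3.61 and 3.44. It was at 1 or above in 46.3% of March cells (95% exact Clopper-Pearson interval 35.3 to 57.7%) and 36.5% of April cells (26.9 to 46.9%), an interval that covers counting error only. By run, the share for Igtp was 48.0% in Mar1, 45.6% in Mar17, 45.8% in Apr13 and 27.1% in Apr21, so 3 runs lay together and Apr21 lay below them. Irgm1 averaged 2.10 in March and 2.11 in April and was at 1 or above in 45.1% and 44.8% of cells, yet its share varied by run, with 28.0% in Mar1, 52.6% in Mar17, 54.2% in Apr13 and 35.4% in Apr21.

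The other members were found in fewer cells. Gbp7 averaged 1.19 in March and 0.88 in April, and 19.5% and 13.5% of cells were at 1 or above. Gbp2 averaged 0.81 and 0.68, with 17.1% of March cells and 7.29% of April cells at 1 or above. Irgm2 averaged 0.60 and 0.61, with 14.6% and 17.7% of cells at 1 or above, and its share varied by run between 4% in Mar1 and 25% in Apr13. Run means ran between 2.66 and 3.73 for Ifi47, 1.79 and 3.04 for Igtp, 1.45 and 2.64 for Irgm1, 0.83 and 1.47 for Gbp7, 0.34 and 1.02 for Gbp2, and 0.20 and 0.88 for Irgm2, so the ranges of neighbours in this order overlapped while those of Ifi47 and Irgm1 did not. Since all genes were read in the same cells, the order can also be compared within runs. Ifi47 was above Igtp, and Igtp above Irgm1, in each of the 4 runs, most closely in Mar17 (means 2.66, 2.53 and 2.39). Among the lower members the order changed between runs: Gbp7 was above Irgm1 in Mar1 (1.47 and 1.45), and below Gbp2 and Irgm2 in Apr13 (0.83, against 0.998 and 0.88).

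Set against the rest of the table, Ifi47 and Igtp were among the genes that varied most from cell to cell. The SD of the log2 level lay at percentile 98.2 of all genes for Ifi47, 95.3 for Igtp and 86.7 for Irgm1. Their mean level lay at percentiles 91.5, 86.1 and 82.2. Irgm2, Gbp2 and Gbp7 lay nearer the middle in mean level, at percentiles 42.6, 49.5 and 60.0. Signal was concentrated in few cells: the 10 highest cells of a capture held 94.0% of the summed linear Igtp signal in March and 86.0% in April. For the other members this share ran between 93.2% (Ifi47) and 99.6% (Gbp2) in March. In April it ran between 63.7% (Ifi47) and 99.8% (Gbp2). It was not computed over all genes, so nothing particular to Igtp is read from it. Between the clear classes lay few cells for Igtp in April (9 of 96 with a linear value from 1 to 10) and more in March (21 of 82), so a cut at 1 divides March cells less cleanly.

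**Figure D1:**
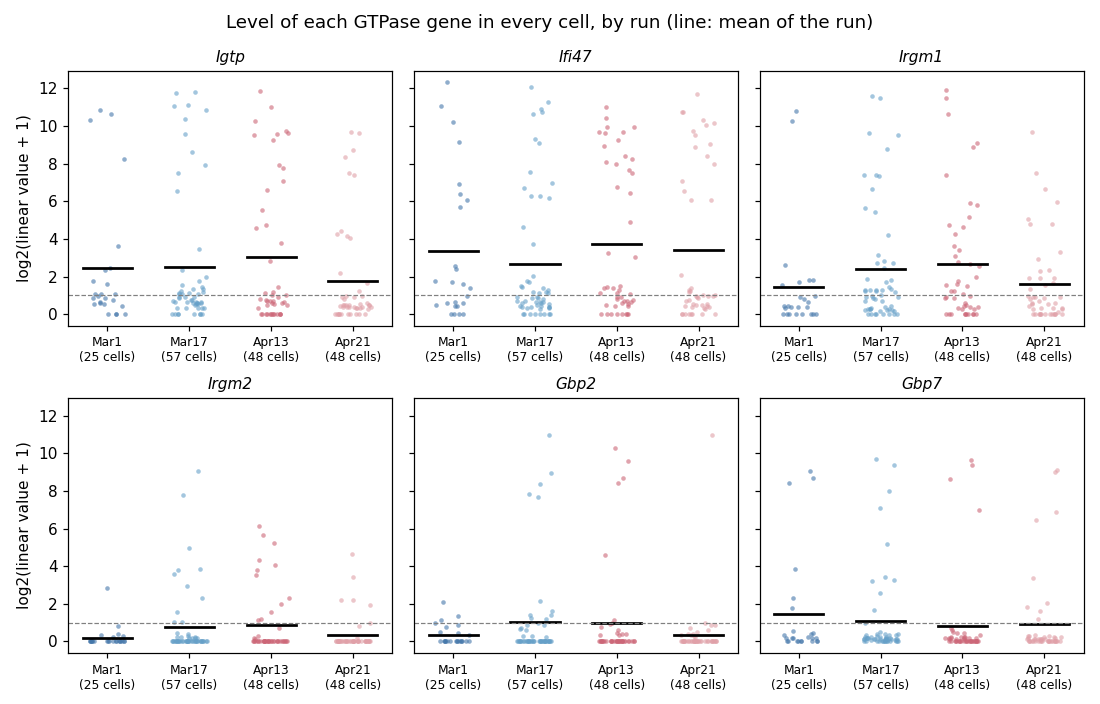
Each dot is 1 cell, with the log2(linear value + 1) of the named gene on the vertical axis and the 4 runs along the horizontal axis; the black line is the mean of the run and the dashed line marks a linear value of 1. Ifi47, Igtp and Irgm1 have cells far above the dashed line in every run, while Irgm2, Gbp2 and Gbp7 are near 0 in most cells.

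The genes were found together in the same cells only loosely. With a linear value of at least 1 as detection, 25 of 178 cells held none of the 6 genes, 51 held 1, 54 held 2, 32 held 3, 13 held 4, 2 held 5 and 1, an Apr13 cell, held all 6. Cells with at least 2 members numbered 102, or 57.3%, where multiplying the single shares over all 178 cells gives 106.7. Cells with at least 4 numbered 16, where the product gives 10.2, and cells with none numbered 25, where it gives 17.5. With a linear value of at least 10, 4 cells held at least 4 members, where the product gives 1.04. More cells than the product thus sat at each end, with many or with none, but the excess is a few cells and is a description of these cells with no test.

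Rank correlations over cells were small. Over the 15 pairs, Spearman's rho ran between -0.15 and 0.40 in March, with a median of 0.14, and between -0.16 and 0.21 in April, with a median of 0.09. It was above 0 in both captures for 11 pairs and below 0 in both for 2, which were Ifi47 with Gbp7 and Irgm1 with Gbp7. The highest was Igtp with Irgm2 in March (0.40), a pair with overlapping gene bodies and shared sequence, and it was 0.09 in April. Igtp with Gbp7 had rho 0.35 in March and 0.06 in April, and Igtp with Ifi47 had 0.26 and 0.06. Ifi47 with Irgm1 had 0.27 and 0.15, and Ifi47 with Irgm2 had 0.19 and 0.21, the pair with the highest rho in April. Cells of a capture share its chemistry, and differ in how many genes were detected, between 2927 and 6990 in March. The rank correlation between a member and the number of genes detected in a cell ran between -0.07 and 0.32. That with the mitochondrial share of the signal ran between -0.31 (Irgm1 in March) and 0.11, and was -0.29 for Ifi47 in April, so some of these values are as large as those of most pairs; their part in the pair values was not tested.

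**Figure D2:**
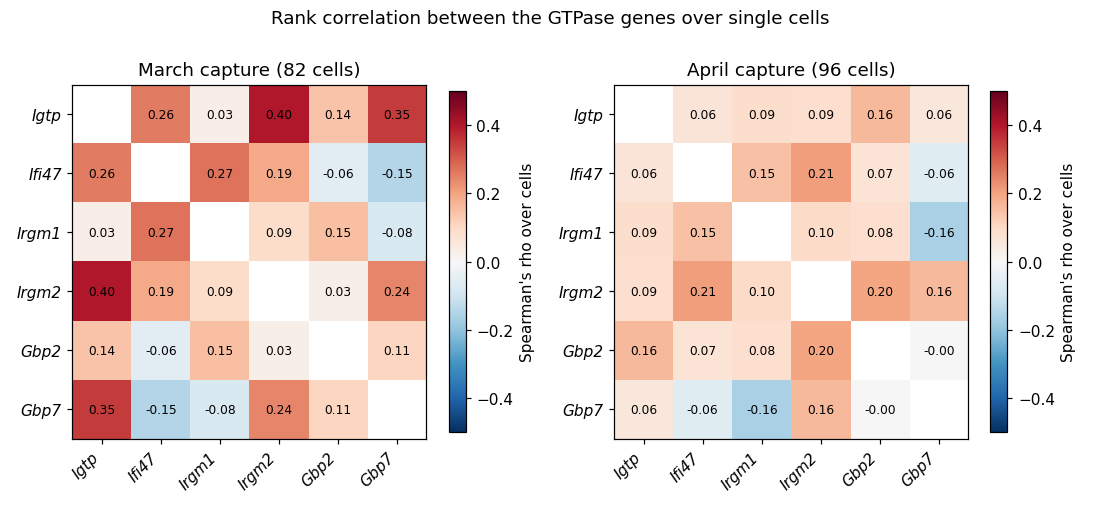
Each square gives Spearman's rho between 2 genes over the single cells of a capture, March on the left and April on the right, on a colour scale from -0.5 (blue) to 0.5 (red). Igtp with Irgm2 (0.40) and with Gbp7 (0.35) are the darkest squares in March, and no April square goes above 0.21.

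Among the 6911 genes above 0 in at least 25% of cells of both captures, the 6 whose levels ran most like Igtp, by mean rho of the 2 captures over 82 and 96 cells, were Golga4 (0.32), Gm43302 (0.28), 2510002D24Rik (0.27), 9130208D14Rik (0.27), Ifit1bl1 (0.27) and Rdh12 (0.26). Golga4 is a golgin of the trans-Golgi network and Ifit1bl1 belongs to the interferon-induced Ifit family. Of the other members, which all passed that filter, Irgm2 came at rank 9, Gbp7 at 42, Ifi47 at 165, Gbp2 at 225 and Irgm1 at 1799.

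The next comparison asked whether cells with clear detection of Igtp also held more of the other members. Igtp-positive cells had a linear Igtp value of at least 1, with 38 positive against 44 negative cells in March and 35 against 61 in April. Igtp-negative cells were not all without Igtp: 32 of the 44 in March and 37 of the 61 in April had a value above 0. The mean log2 value per capture and class was tested with limma, with the capture as a block. All 5 other members had a higher fitted mean in Igtp-positive cells, although Irgm1 turned to -0.18 with any Igtp value above 0 as positive and Gbp7 to -0.42 with the log2 of mean linear values and -0.12 with the 4 runs as blocks. Their median difference was 0.67, and 0.33 with any Igtp value above 0 as positive, where in the first setting 52.4% of all 10794 genes tested were higher and the median over them was 0.01. No gene passed an adjusted p of 0.05 in limma (Benjamini-Hochberg), so the background was 0% called, and 402 genes had an unadjusted p under 0.05. None of the 5 members passed either, and 3 of them, Irgm1, Irgm2 and Gbp2, were higher in both captures. Their runs did not all go that way. Irgm2 differed by -0.14 in Mar1, and Gbp2 by -0.28 and Irgm1 by -0.31 in Apr21, while their other runs lay above 0.

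Irgm2 averaged 1.10 in Igtp-positive and 0.17 in Igtp-negative March cells, and 0.97 in Igtp-positive and 0.41 in Igtp-negative April cells, a fitted difference of 0.75 ± 0.25 (SE; 95% interval 0.22 to 1.28; limma adjusted p = 1.0). With any Igtp value above 0 as positive the differences were 0.23 for Irgm2, 0.33 for Gbp2 and 0.36 for Ifi47. Irgm2 was at 1 or above in 9 of 38 positive against 3 of 44 negative March cells, and in 9 of 35 against 8 of 61 April cells. The shared sequence of the pair may bear on this value, and its part was not tested. Gbp2 averaged 1.24 in Igtp-positive and 0.45 in Igtp-negative March cells, and 1.04 and 0.48 in those classes in April, a difference of 0.67 ± 0.28 (95% interval 0.09 to 1.26; limma adjusted p = 1.0). The Gbp2 means rest on few cells, since 8 of 38 Igtp-positive against 6 of 44 Igtp-negative March cells, and 4 of 35 against 3 of 61 April cells, were at 1 or above.

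Ifi47 was higher in Igtp-positive cells in March, and about level in April. It averaged 3.88 in Igtp-positive and 1.99 in Igtp-negative March cells, against 3.52 and 3.59 in those classes in April, so the differences were 1.90 and -0.06 and the fitted one was 0.92 ± 0.59 (95% interval -0.34 to 2.17). Without the run Mar1 the fitted one was 0.50. By run, Ifi47 differed by 3.74 in Mar1, 1.06 in Mar17, 0.65 in Apr13 and -1.13 in Apr21, so the April runs went opposite ways. Gbp7 likewise differed by 0.74 in March and by -0.29 in April (fitted 0.23 ± 0.34), and without Mar1 its fitted difference was 0.81. Its runs differed in sign within both captures, with -1.90 in Mar1, 1.90 in Mar17, -0.56 in Apr13 and 0.08 in Apr21. Irgm1 differed by 0.73 and 0.22 (fitted 0.48 ± 0.45; 95% interval -0.46 to 1.42). The median number of genes detected was 5412.5 in Igtp-positive and 5261 in Igtp-negative March cells and 5020 and 4927 in those classes in April. Runs went both ways, with 4639.5 and 4919 in those classes in Mar1 and 5567.5 and 5375 in Mar17.

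Most genes known to answer to the same interferon signals lay above 0 as well, and none passed the test. Of 12 other interferon-inducible GTPases tested, 11 were higher and 1 lower in Igtp-positive cells, with a median difference of 0.36, and 6 were higher in both captures. Gvin1, a very large interferon-inducible GTPase, differed most among them (1.73 in March and 1.27 in April; fitted 1.5 ± 0.42), followed by the near-identical pair Tgtp1 (0.71) and Tgtp2 (0.68), whose reads may have been split between them, and Gm12250 (0.63). Of 29 type I interferon-stimulated genes, 27 were higher and 2 lower, with a median of 0.39, and 16 were higher in both captures. Ifit1, which binds foreign RNA, differed by 1.06 in March and 1.28 in April (fitted 1.17 ± 0.31), and Ifi27l2a by 1.11 and 0.96 (fitted 1.04 ± 0.53). Of 13 genes of MHC class I presentation and the immunoproteasome, 12 were higher and 1 lower, with a median of 0.46, but only 5 were higher in both captures. Tap1, a subunit of the peptide transporter, differed by -0.16 in March and 1.86 in April.

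Of 11 genes of interferon gamma signalling, 6 were higher and 5 lower in Igtp-positive cells. Irf1, a transcription factor induced by interferon gamma, differed by 0.86 in March and 0.15 in April (fitted 0.50 ± 0.51), and the receptor chains Ifngr1 (0.18 ± 0.50) and Ifngr2 (0.13 ± 0.41) differed by less than their SE. Ptpn2, a phosphatase that turns cytokine receptor signalling down, was lower in both captures (-1.43 and -1.11; fitted -1.27 ± 0.45), while Nlrc5, an activator of MHC class I genes, was at 0.64 ± 0.51. Of 7 genes of type I interferon signalling, 4 were higher and 3 lower: Usp18 (0.90 ± 0.35) and Stat2 (0.84 ± 0.31), themselves induced by interferon, were above 0, the transcription factor Irf3 was below 0 (-0.52 ± 0.45), and the receptor chains Ifnar1 (-0.23 ± 0.40) and Ifnar2 (0.07 ± 0.34) differed by less than their SE. Socs1, the feedback inhibitor, was above 0 in too few cells to be tested. Of 10 autophagy genes that work with these GTPases, 3 were higher and 7 lower, with Atg12 (0.91 ± 0.30) and Atg16l1 (-0.88 ± 0.52) the farthest from 0.

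The 3 genes with the smallest p in each direction were Tmc5 (0.97 ± 0.22), Ifit1 and Ripk3 (1.17 ± 0.32), a kinase of necroptosis, on the higher side, and Dnajc30 (-0.86 ± 0.21), Trappc2 (-0.997 ± 0.253) and Cep41 (-0.78 ± 0.20) on the lower side, each with a limma adjusted p of 1.0. Of 12 regulatory T cell genes, 7 were higher and 5 lower in Igtp-positive cells, with a median difference of 0.03. The farthest from 0 were Izumo1r, the folate receptor 4 of regulatory and anergic T cells (-2.37 ± 0.62), the inhibitory receptor Ctla4 (-0.95 ± 0.54), the costimulatory receptor Tnfrsf4 (0.86 ± 0.53) and Capg (0.69 ± 0.62). Of 8 CD4 T cell markers, all 8 were in the table, and 2 were higher and 6 lower in Igtp-positive cells. The summed log2 level of these markers ran between 16.7 and 73.9 in Igtp-positive against 25.7 and 73.4 in Igtp-negative March cells (medians 53.8 and 54.0), and between 37.3 and 71.7 in Igtp-positive against 28.0 and 76.2 in Igtp-negative April cells (medians 58.0 and 61.2). Of the B cell markers 2 of 6 were in the table, Ebf1 and Pax5, with a median sum of 2.35 in Igtp-positive and 1.91 in Igtp-negative March cells and of 1.58 and 2.09 in those classes in April; of the myeloid markers 2 of 6 were there, Itgam and Csf1r, with medians of 1.11 and 0.66 in March and 0.60 and 0.40 in April. The summed CD8 T cell and NK cell markers had a median of 0 in Igtp-positive and Igtp-negative cells of both captures. Some cells did hold them. The highest CD8 sum was 10.9 in Igtp-positive and 9.07 in Igtp-negative March cells, and 7.30 and 10.7 in April. The highest NK sum was 4.18 and 10.4 in those classes in March, and 10.6 and 5.86 in April. The highest B cell sum was 18.2 and 5.32 in March, and 4.13 and 6.88 in April. Cd8b1 was at 1 or above in 19.7% of all cells, and Ebf1 in 88.8%. The part of these markers in the values above was not tested.

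**Figure D3:**
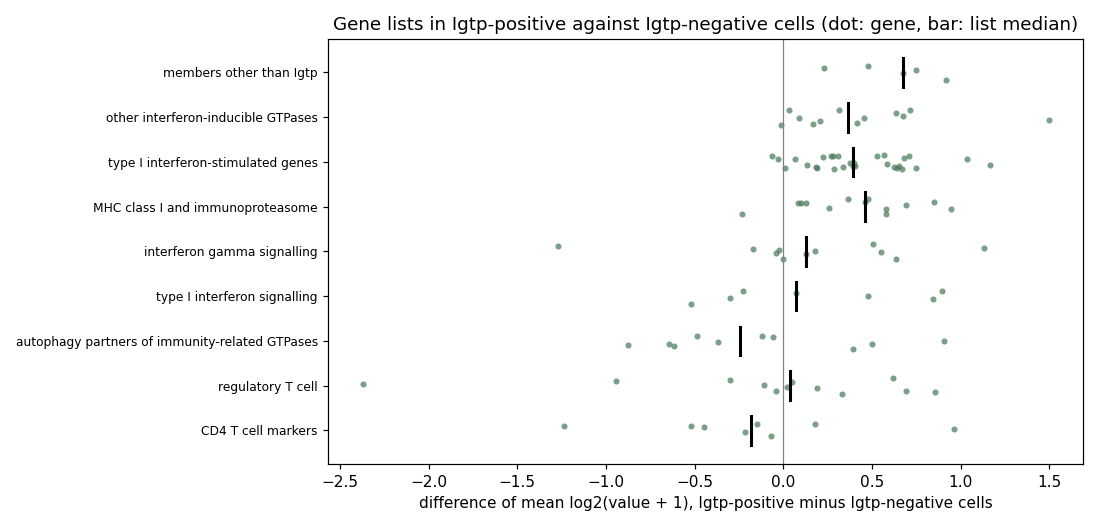
Each dot is 1 gene, placed on the horizontal axis by its fitted difference of mean log2(value + 1), Igtp-positive minus Igtp-negative cells; rows are gene lists and the black bar is the median of the list. The members other than Igtp (median 0.67), the other GTPases (0.36), the type I interferon-stimulated genes (0.39) and MHC class I genes (0.46) lie mostly right of 0, and no gene passed the adjusted test.

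Klf2 is the transcription factor named in the title of the series, and it keeps T cells quiescent and recirculating. Klf2-positive cells, with any value above 0, numbered 43 against 39 negative cells in March and 46 against 50 in April. Cells with clear detection of Igtp made up 37 of the 89 Klf2-positive cells and 36 of the 89 that were Klf2-negative. By mean level it differed by 0.78 in March and -0.23 in April (fitted 0.28 ± 0.42; 95% interval -0.57 to 1.12; limma adjusted p = 0.98). No gene of 10794 passed an adjusted p of 0.05 in limma, so the background was 0% called, and 698 had an unadjusted p under 0.05. None of the 6 members passed.

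Among the other members, Gbp7 averaged 1.26 in Klf2-positive and 1.12 in Klf2-negative March cells, and 1.36 and 0.44 in those classes in April (fitted 0.53 ± 0.31; 95% interval -0.10 to 1.16). In March 10 of 43 Klf2-positive against 6 of 39 Klf2-negative cells were at 1 or above for Gbp7, and in April 9 of 46 against 4 of 50 were. Irgm1 differed by 0.85 in March and 0.27 in April (fitted 0.56 ± 0.39; 95% interval -0.23 to 1.35), and Ifi47 by 0.21 and 0.78 (fitted 0.49 ± 0.45; 95% interval -0.42 to 1.41). With a linear Klf2 value of at least 1 as positive, the fitted difference of Irgm1 was 0.04, that of Igtp 0.71 and that of Gbp7 0.83. Gbp2 was the only member lower in Klf2-positive cells of both captures (-0.45 and -0.23; fitted -0.34 ± 0.26; 95% interval -0.86 to 0.18), although the log2 of mean linear values gave 0.30 and the runs differed in sign (0.40 in Mar1, -0.83 in Mar17, -0.73 in Apr13 and 0.37 in Apr21), and Irgm2 was near 0 (-0.07 ± 0.23; 95% interval -0.53 to 0.39). The upper ends of the intervals for Igtp, Ifi47, Irgm1 and Gbp7 lie above 1 on the log2 scale, so equal levels in the Klf2 classes are not shown.

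In Klf2-positive cells 4 of 12 other interferon-inducible GTPases were higher and 8 lower (median -0.10), Gvin1 the farthest from 0 (0.74 ± 0.36). Of 29 type I interferon-stimulated genes 24 were higher and 5 lower (median 0.15, against -0.03 over all genes tested), with Ifi27l2a (1.19 ± 0.42) and Slfn5 (1.02 ± 0.38) the farthest from 0. Of 11 interferon gamma signalling genes 4 were higher and 7 lower, with Ptpn2 at -0.71 ± 0.44, Nlrc5 at 0.65 ± 0.43 and Irf1 at -0.60 ± 0.44. The receptor chains Ifngr1 (0.35 ± 0.42), Ifngr2 (-0.15 ± 0.37), Ifnar1 (0.05 ± 0.37) and Ifnar2 (0.15 ± 0.32) differed by less than their SE. The 8 CD4 T cell markers were all lower in Klf2-positive cells, 3 of them in both captures, and Trac, the T cell receptor alpha constant gene, had one of the smallest p-values (-1.20 ± 0.31; limma adjusted p = 0.60). This shift of the marker list stands beside the values of the members, and its part in them was not tested.

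**Figure D4:**
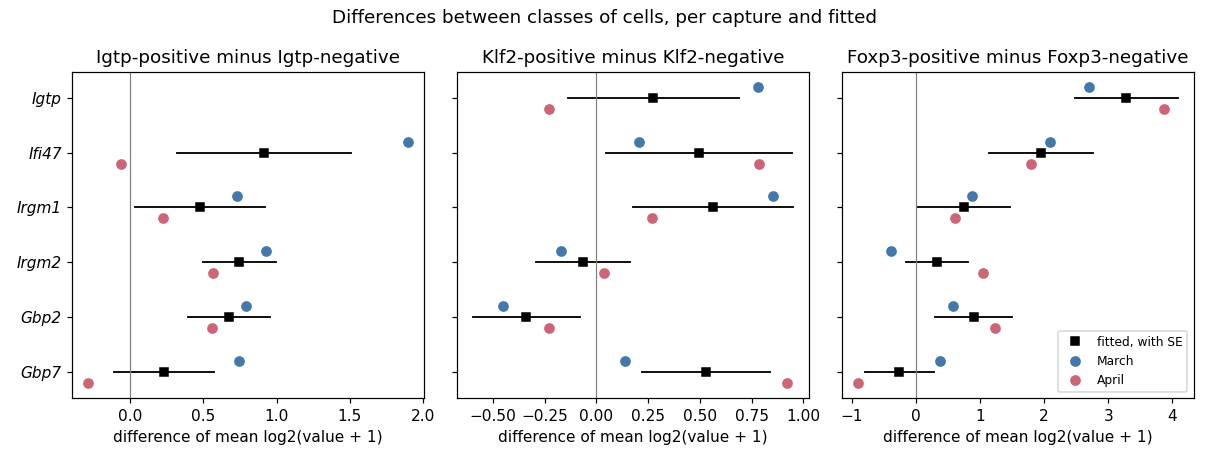
Differences of mean log2(value + 1) between positive and negative cells for the 6 genes, with Igtp, Klf2 and Foxp3 classes from left to right; circles are the March (blue) and April (red) captures and squares with bars are the fitted difference ± SE; the horizontal scale differs between panels. Irgm1, Irgm2 and Gbp2 lie right of 0 in both captures in the Igtp panel. Igtp, Ifi47, Irgm1 and Gbp2 lie right of 0 in both captures in the Foxp3 panel, the comparison by which the genes were chosen.

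Foxp3 is the transcription factor that defines regulatory T cells. Any Foxp3 value above 0 was found in 17 of 82 March cells and 6 of 96 April cells. In the comparison that brought Igtp up, no gene of 10794 passed the adjusted test (0% called, 687 with an unadjusted p under 0.05 in limma), and nothing is read from that share for genes chosen by it. Igtp averaged 4.64 in Foxp3-positive and 1.95 in Foxp3-negative March cells, and 6.04 and 2.17 in those classes in April. The difference was above 0 in each of the 4 runs: 5.15 in Mar1, 1.66 in Mar17, 4.04 in Apr13 and 2.98 in Apr21. Clear detection of Igtp, a linear value of at least 1, was seen for 9 of 17 Foxp3-positive against 29 of 65 Foxp3-negative March cells, with medians of 1.12 and 0.85, and for 4 of 6 against 31 of 90 April cells. A linear Igtp value of at least 10 was seen for 7 of 17 Foxp3-positive against 10 of 65 Foxp3-negative March cells, and for 4 of 6 against 22 of 90 April cells. The classes overlapped widely, with the highest Igtp value at 11.75 in Foxp3-positive and 11.81 in Foxp3-negative March cells.

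Ifi47 averaged 4.53 in Foxp3-positive and 2.43 in Foxp3-negative March cells, and 5.25 and 3.45 in those classes in April. Irgm1 (2.79 and 1.92 in March; 2.69 and 2.08 in April) and Gbp2 (1.27 and 0.70; 1.83 and 0.60) were also higher in Foxp3-positive cells of both captures, by less. Irgm2 was lower in Foxp3-positive cells in March (0.30 and 0.68) and higher in April (1.60 and 0.55). Gbp7 was higher in March (1.49 and 1.11) and lower in April, where all 6 Foxp3-positive cells were near 0 (0.04 and 0.94).

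Foxp3-positive cells differed among themselves in how much Foxp3 they held. Of the 23 Foxp3-positive cells, 15 held only a trace, with a linear value under 1, and 8 held 1 or more. In March, Igtp was at 1 or above in 2 of 7 cells with Foxp3 at 1 or more, in 7 of 10 cells with a trace, and in 29 of 65 cells at 0. Its mean was 2.11 in the cells with 1 or more, 6.42 in the trace cells and 1.95 in the cells at 0. In April the 1 cell with Foxp3 at 1 or more held Igtp at 11.04 and Irgm2 at 5.23, with Gbp2 and Gbp7 at 0, while 3 of 5 trace cells and 31 of 90 cells at 0 were at 1 or above. Ifi47 averaged 1.98 in the March cells with 1 or more, 6.31 in the trace cells and 2.43 in the cells at 0. In March, then, cells with Foxp3 at 1 or more had mean Igtp and Ifi47 levels near those of cells at 0, and the trace cells stood above both. The guanylate-binding proteins had another order in March: Gbp7 averaged 3.37 in the cells with 1 or more (4 of 7 at 1 or above), 0.18 in the trace cells (0 of 10) and 1.11 in the cells at 0, and Gbp2 averaged 2.74, 0.24 and 0.70 in these. Irgm1 averaged 0.74, 4.23 and 1.92, and Irgm2 0, 0.50 and 0.68. This split was made after the values were seen, it rests on few cells, and it was not tested.

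**Figure D5:**
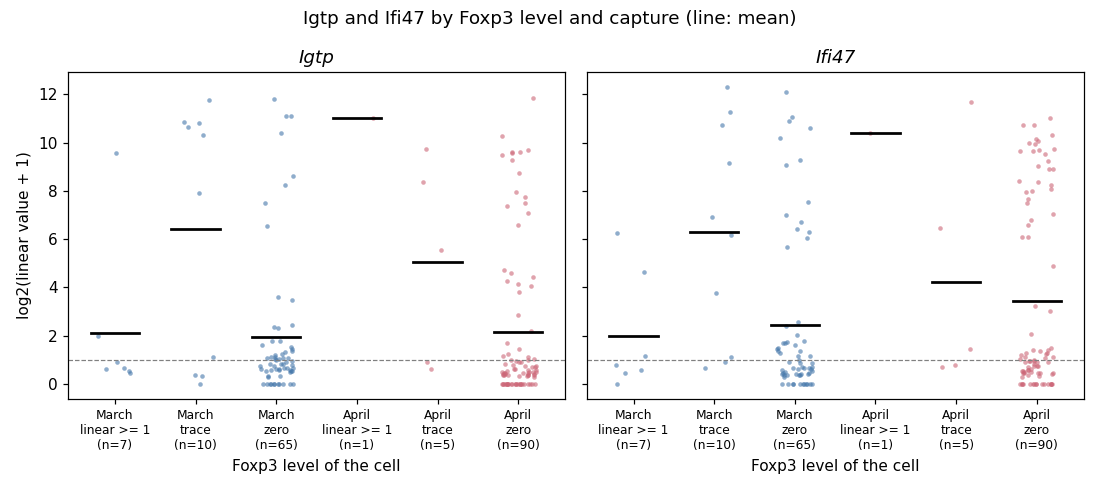
Each dot is 1 cell, with the log2(linear value + 1) of Igtp (left) or Ifi47 (right) on the vertical axis; columns give the capture (March blue, April red) and the Foxp3 level of the cell, and black lines are means. In March the 10 trace cells average 6.42 for Igtp, while the 7 cells with Foxp3 at a linear value of 1 or more average 2.11 and the 65 cells at 0 average 1.95.

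The label regulatory T cell is not given to these cells. Of 11 further regulatory T cell genes tested, 7 were higher and 4 lower in Foxp3-positive cells, with a median difference of 0.03. The farthest from 0 were Ikzf2 (1.65 ± 0.71), Nrp1 (1.12 ± 0.67), Izumo1r (-0.74 ± 0.82) and Tnfrsf18 (-0.65 ± 0.74). The summed log2 level of these 11 genes had a median of 20.2 in Foxp3-positive and 20.5 in Foxp3-negative March cells and of 29.1 and 21.3 in those classes in April. Of the 12 other interferon-inducible GTPases 10 were higher and 2 lower in these cells (median 0.60, against -0.05 over all genes tested), and of the 29 type I interferon-stimulated genes 17 were higher and 12 lower (median 0.10).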

How the data were processed

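The deposited table gave log2 values for 12432 genes in 178 cells. Per the submitters' processing notes the build was mm10; no aligner or counter is named there. Sums of 2 to the power of each value minus 1 ran between 892206 and 979888 per cell, so values were read as log2(TPM-like value + 1), and the linear value is that back-transformed number; read depth is unknown. Symbols were matched for 12163 gene IDs and not for 269. Every cell passed the cell filter (at least 500 genes and 5% of the median total), and no doublet caller was run. Median genes detected were 5344 in March and 4933.5 in April cells, and in 3 cells, all of Mar1, mitochondrial genes took over 50% of the signal.

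Class differences were tested on the mean log2 value per capture and class (4 pseudobulk libraries, capture as block, 1 residual degree of freedom). The test was limma 3.58.1 in R 4.3.3 with a trend, so the variance of each gene was moderated toward that of other genes. The SE, intervals and p-values of fitted differences are moderated in this way. They are not a measure of the spread between captures alone. Two-sided p-values had Benjamini-Hochberg adjustment at 0.05 over genes above 0 in at least 10% of cells. The fitting code was tested on these cells with classes shuffled within captures and known shifts added to some genes. The motif scan was tested on simulated sequences. Classes are paired because each capture holds both. Differences are of mean log2 values with zeros included and are not folds. No p-value takes cells as replicates. Alternatives varied the detection threshold, pseudocount, gene filter, block, averaging, normalization, runs and cells. The members and lists were chosen with earlier results of these data known. Named were all members, the 3 genes per direction with the smallest p, up to 4 per list by size of the difference, and the interferon receptors and regulators. Promoter sequences are from RefSeq, all 6 matched; protein sequences were not used here. A regulator among the listed genes is not reported here.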

Additional observations from a re-analysis of the deposited data

How the results depend on the processing

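Each comparison was repeated under 10 tested alternatives. No gene was called in any of them for the Igtp and the Klf2 classes, and the smallest adjusted p of a member over these alternatives was 0.733 (Igtp classes) and 0.665 (Klf2 classes) in limma. For the Foxp3 classes 1 gene, Trbc2 (-3.41; limma adjusted p = 0.0142), was called when Foxp3-positive meant a linear value of at least 1, a class with 1 April cell; the cause was not tested. Fitted differences changed sign for Irgm1 in the Igtp classes with any value above 0 as positive (-0.18), for Gbp7 in the Igtp classes with the log2 of mean linear values (-0.42) and with the 4 runs as blocks (-0.12), and for Gbp2 in the Klf2 classes with the log2 of mean linear values (0.30). In the Foxp3 classes, described without a test, Gbp7 moved to 0.75 with a linear Foxp3 value of at least 1 as positive and Irgm2 to -0.65 with the log2 of mean linear values. With the other detection threshold, values moved by more than 1.5 times for all 5 members in the Igtp classes and for Igtp, Irgm1, Irgm2, Gbp2 and Gbp7 in the Klf2 classes. The log2 of mean linear values also moved the median of all genes in the Foxp3 classes to -0.73. Without the replicate block, no gene was called in the 3 comparisons (0 each). Leaving out a capture leaves 1 library per class and so a value with no test. Depth per cell is unknown. Foxp3 classes held as few as 6 cells in the main setting, 2 with the 4 runs as blocks and 1 with the other detection threshold.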

Other observations

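Among the genes whose levels ran most like those of Irgm2 over cells, Dcst1 came second, with a mean rho of 0.29 over the 2 captures (0.13 in March and 0.44 in April). Dcst1 is one of the genes that share some 50-base words with the longest Irgm2 transcript, and the part of such words in this likeness was not tested. For Ifi47, the genes most like it were Adam19 (mean rho 0.28) and Gpr18 (0.28), and for Irgm1 Pip5k1a (0.28). These are descriptions over cells that share a capture, with no test.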
